A study of Mus musculus with 76 samples.

Results

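The T cell receptor complex and its first signaling enzymes were followed through 9 genes, Cd3e, Cd3g, Cd3d, Cd247, Trbc2, Trac, Lck, Zap70 and Lat, out of 55536 genes in the count table. They were chosen by name and matched through the gene symbols supplied with the counts. The rule uses no expression value, but the set was chosen with earlier results of these data known. RNA came from 38 whole subcutaneous flank tumors of Balb/c mice, each sequenced as 2 technical libraries whose counts were summed per tumor. CT26 is a mouse colorectal carcinoma line, and 4T1, a mouse mammary carcinoma line, was inoculated with its derivatives at 0.5 times the cell number used for CT26. With CAT-ABP + alum there were 6 CT26, 6 parental 4T1 and 5 4T1-CAT tumors, and with alum 5 of each of these and 6 4T1-control tumors. CAT-ABP is the enzyme catalase, which breaks down hydrogen peroxide, joined to a peptide that holds it on alum particles, so every group carries alum. The dose was 20 µg of CAT-ABP with 100 µg of alum, or the alum without it, given into the tumor on day 6 with tumors taken on day 8 according to the labels, while the study's text puts the diet, the injection and the harvest each at a later day.

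4T1-CAT cells make catalase inside the cell together with GFP, and 4T1-control cells make GFP, each under a doxycycline-inducible lentiviral vector, with the diet started on day 4 by the labels. Both derivatives were selected with puromycin and sorted for GFP as pools of cells. Parental 4T1 and CT26 mice had no such diet, so the vector and the diet change together when a derivative is set against parental 4T1. The labels do not say whether tumors of a group came from separate experiments, and p-values measure the spread between these tumors. Because whole tumors were sequenced, a lower value can mean fewer cells of a type or less RNA per cell, and these cannot be told apart.

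As background, an alpha-beta T cell recognizes peptide with a receptor whose variable chains end in constant regions encoded by Trac for the alpha chain and by Trbc1 or Trbc2 for the beta chain. These chains have no signaling tail of their own and are assembled with the CD3 proteins encoded by Cd3g, Cd3d and Cd3e and with the zeta chain encoded by Cd247. After recognition, the kinase Lck phosphorylates the tails of these proteins, the kinase Zap70 docks there, and Zap70 phosphorylates Lat, the adaptor on which the downstream signaling proteins gather. Natural killer (NK) cells also use Cd247, Lck, Zap70 and Lat for their own receptors.

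Cd3g, Cd3d and Cd3e lie together on chromosome 9 in GRCm38, within 40056 bases. Cd3g spans 44969572 to 44980431 on the minus strand, Cd3d 44981786 to 44987339 on the plus strand, and Cd3e 44998740 to 45009627 on the minus strand, with 1354 bases between the first pair. Cd247 spans 165788681 to 165877277 and Zap70 36761798 to 36782818 on chromosome 1, both on the plus strand. Lck spans 129548344 to 129573641 on chromosome 4 and Lat 126363824 to 126369570 on chromosome 7, both on the minus strand. The constant region genes are Trbc2, at 41546730 to 41548352 on chromosome 6, and Trac, at 54220521 to 54224206 on chromosome 14, both on the plus strand. Trbc1 lies 6848 bases from Trbc2 and is a near-identical copy, so the division of reads between Trbc1 and Trbc2 is uncertain. Cd247 overlaps the protein-coding gene Pou2f1 on the other strand and Cd3e overlaps the antisense gene Gm48719, and how strand was used in counting is not given in the sources used here.

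The bases just before the start sites are shown for the clustered CD3 genes, whose counts differed widely, and for Cd247 and Lck, which moved with Cd3g and Cd3d between the tumor models. They are RefSeq windows on GRCm38.p6, from 220 to 21 bases before the RefSeq start and written on the gene's own strand, and capitals mark the letters GGAAG (a core recognized by ETS factors), TGTGGT (RUNX) and CAGGTG (an E-box) on either strand.
Cd3g, chr9:44980452-44980651, minus strand: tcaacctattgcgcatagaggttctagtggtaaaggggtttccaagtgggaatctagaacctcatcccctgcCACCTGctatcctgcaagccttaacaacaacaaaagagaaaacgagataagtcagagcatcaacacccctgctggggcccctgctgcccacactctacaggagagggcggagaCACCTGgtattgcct
Cd3d, chr9:44981566-44981765, plus strand: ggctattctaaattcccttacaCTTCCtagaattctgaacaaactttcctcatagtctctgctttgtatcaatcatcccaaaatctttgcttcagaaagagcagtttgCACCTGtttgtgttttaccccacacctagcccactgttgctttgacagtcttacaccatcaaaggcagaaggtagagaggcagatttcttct
Cd3e, chr9:45009632-45009831, minus strand: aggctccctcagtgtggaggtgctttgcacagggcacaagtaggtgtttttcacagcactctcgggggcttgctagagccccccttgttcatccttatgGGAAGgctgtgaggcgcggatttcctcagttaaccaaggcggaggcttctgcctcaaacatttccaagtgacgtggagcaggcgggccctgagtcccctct
Cd247, chr1:165788461-165788660, plus strand: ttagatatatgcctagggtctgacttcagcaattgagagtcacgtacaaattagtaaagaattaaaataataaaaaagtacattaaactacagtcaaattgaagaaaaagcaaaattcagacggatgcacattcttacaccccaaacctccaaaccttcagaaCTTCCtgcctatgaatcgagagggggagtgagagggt
Lck, chr4:129573662-129573861, minus strand: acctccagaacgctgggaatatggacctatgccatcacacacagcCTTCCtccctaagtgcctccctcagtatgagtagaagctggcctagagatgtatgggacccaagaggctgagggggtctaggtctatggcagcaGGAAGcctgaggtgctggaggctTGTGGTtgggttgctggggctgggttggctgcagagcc
Over 32851 windows of the same length, GGAAG was found in 55.6%, TGTGGT in 11.5% and CAGGTG in 14%. The Cd3g window held 2 copies of CAGGTG, and the Cd3d window held 1 copy of CAGGTG and 1 of GGAAG. The Cd3e and Cd247 windows held 1 copy of GGAAG each, and the Lck window, at the more distant of its promoters, held 2 of GGAAG and 1 of TGTGGT. A match describes letters in the window and is not evidence of binding.

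Tumors held between 493044 and 9077550 counts (median 4827390). Of the tumors, 2 held under 1000000, 4T1 CAT-ABP + alum replicate 4 (837403) and 4T1-control alum replicate 2 (493044), whose 9 genes together had 32 and 23 counts. For 4T1-control alum replicate 2 the summed level of 50.2 CPM (counts scaled to a library total of 1000000) has an exact Poisson 95% interval from 31.8 to 75.4 CPM, which covers counting error only. The first part of each library's index tag placed every tumor in 1 of 2 sets, called pool sets here. That these are sequencing pools or batches is inferred, and the sample labels do not say so. All CT26 and 4T1 CAT-ABP + alum tumors and 2 of the 5 4T1 alum tumors were in 1 set. The other 3 and all 4T1-CAT and 4T1-control tumors were in the other set. Of the 76 libraries, which held 46233 to 6958630 counts, the second libraries of 4T1-CAT alum replicates 2 and 3 are listed with the same index tag, and their counts differ. Epithelial markers were present in 4T1 and near absent in CT26, with the sum of 7 genes between 1496 and 2790.2 CPM over all 4T1-derived tumors and between 18.7 and 32.5 CPM over CT26 tumors.

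The genes were not counted equally well. Over all tumors Trbc2 had 4489 counts, Lck 2565, Cd3g 2282, Cd3d 2216, Trac 2173 and Cd247 597. Lat had 198 counts, Zap70 133 and Cd3e 70, and their median was under 10 counts in each of the 7 groups, as was that of Cd247 in 3 groups. Cd3e, the CD3 epsilon subunit of every T cell receptor, thus had 70 counts, against 2282 for its neighbor Cd3g and 2216 for Cd3d. Cd3e was at 0 in 10 of the 38 tumors, and it did not pass the low-count filter in any comparison, so it was not tested alone, although it is counted in the sum of the 9 genes and in the correlations between genes.

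Over the 7 groups, Cd3g, Cd3d, Cd247, Trbc2, Trac, Lck and Lat passed the low-count filter and each differed among groups, with adjusted p from 8.43e-14 for Trbc2 to 0.0255 for Lat (edgeR quasi-likelihood F test, all 38 tumors). In the same test 54.5% of 14646 genes were called, so a call here is common. The call for Lat was lost without CT26 alum replicate 1, and Lat fell under the filter without CT26 CAT-ABP + alum replicate 2. In the pairwise comparisons Lat passed the filter only within CT26. The sum of the 9 genes was highest in CT26 alum, 170 CPM ± 42.3 (SD, n = 5), followed by CT26 CAT-ABP + alum at 147 ± 44.8 (n = 6), 4T1-CAT alum at 81.4 ± 29.4 (n = 5), 4T1-CAT CAT-ABP + alum at 52.2 ± 9.82 (n = 5), 4T1-control alum at 44.6 ± 4.03 (n = 6), 4T1 CAT-ABP + alum at 43.7 ± 14.5 (n = 6) and 4T1 alum at 33.1 ± 4.22 (n = 5). Each neighboring pair in this order overlapped in range, for the sum and for each of the 9 genes, so the steps from group to neighboring group are not separated by these tumors. The highest and the lowest group did not overlap for the sum and for 7 of the genes, and overlapped for Cd3e and Lat. These groups were picked for each gene by their means, which favors a lack of overlap, and the share over all genes was not computed. For the fixed pair of CT26 alum over 4T1 alum, 14.2% of genes had no overlap.

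**Figure D1:**
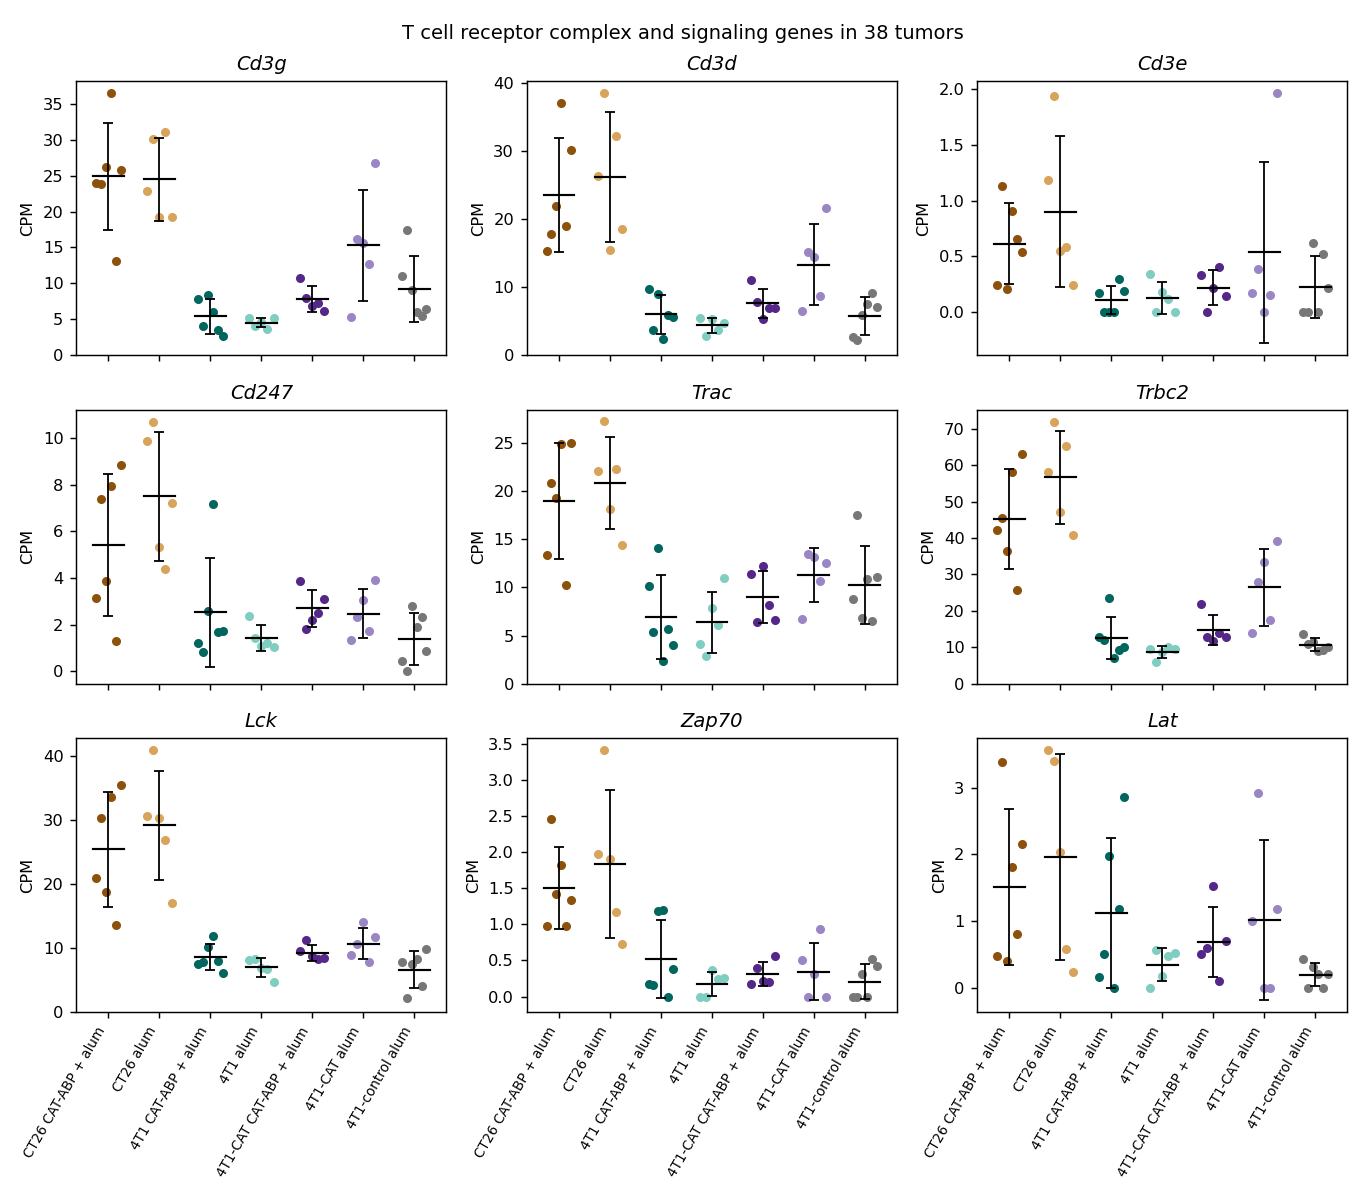
Level of each of the 9 genes in CPM (vertical axis) in the 38 tumors, by group (horizontal axis); points are tumors, horizontal bars are group means and error bars are SD (n = 5 or 6). CT26 groups sit highest for Cd3g, Cd3d, Trbc2, Trac and Lck, and 4T1-CAT alum tumors spread widely for Cd3g, from 5.35 to 26.7 CPM, and for Trbc2, from 14.0 to 39.3 CPM.

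The largest difference was between tumor models. Under alum, all 6 genes that passed the filter were higher in CT26 than in 4T1, by 3.17-fold for Trac to 6.36-fold for Trbc2, and every CT26 tumor exceeded every 4T1 tumor for each of them. By comparison, 42.5% of the 12817 genes tested were called, 21.2% were called higher in CT26, and 14.2% were higher without overlap. The median log2 fold change of the 6 genes was 2.42, against 0.02 over all genes tested. Of the 6, Cd247 had few counts in 4T1 alum. It did not pass the filter where 4T1 alum was compared with 4T1 CAT-ABP + alum or with 4T1-control alum. Cd247 entered this comparison through its CT26 counts, so the filter favored its being higher in CT26.

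Among the invariant chains, Cd3g, which encodes CD3 gamma, stood at 22.9, 30.2, 19.2, 31.0 and 19.3 CPM in the 5 CT26 alum tumors and at 5.12, 4.02, 4.55, 3.71 and 5.23 CPM in the 5 4T1 alum tumors. The lowest CT26 tumor was thus far above the highest 4T1 tumor, and the log2 fold change was 2.44 (SE 0.21, adjusted p = 1.67e-07, edgeR). Cd3d, for CD3 delta, ranged from 15.4 to 38.4 CPM against 2.87 to 5.46 CPM, a log2 fold change of 2.55 (SE 0.28, adjusted p = 1.97e-06). Cd247, the zeta chain, ranged from 4.39 to 10.7 CPM against 1.05 to 2.39 CPM, with a log2 fold change of 2.41 (SE 0.36, adjusted p = 5.19e-05), although its counts in the 4T1 alum tumors were between 4 and 10.

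For the receptor chains, Trbc2 stood at 58.1, 72.0, 47.1, 65.3 and 41.0 CPM in CT26 alum and at 9.56, 6.03, 8.73, 10.04 and 9.41 CPM in 4T1 alum (log2 fold change 2.67, SE 0.19, adjusted p = 1.92e-08). Its near copy Trbc1 moved by a similar amount (2.44, SE 0.17, adjusted p = 1.51e-08). Trac stood at 22.1, 27.2, 18.1, 22.3 and 14.5 CPM against 4.1, 2.87, 7.82, 6.1 and 11 CPM (log2 fold change 1.67, SE 0.28, adjusted p = 2.00e-04). The alpha chain gene had the smallest difference of the 6 in this fit, and that order did not hold with the pool set as a block. Its 2 lowest 4T1 alum values came from replicates 1 and 2, the tumors that share a pool set with CT26. The block leaves only those 2 4T1 tumors to set against CT26. Under it the log2 fold change of Trac was 2.57, above those of Lck (1.80), Cd247 (1.95) and Cd3g (2.41). Lck stood at 30.6, 40.9, 30.4, 26.9 and 17.1 CPM against 8.19, 8.33, 6.91, 6.69 and 4.70 CPM (log2 fold change 2.06, SE 0.23, adjusted p = 3.01e-06). For each of the 6 genes the two-sided exact permutation p on log2 CPM was 0.00794, the smallest that 5 against 5 tumors allow.

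Of the genes with few counts, Zap70 lay between 0.723 and 3.41 CPM in CT26 alum (3 to 14 counts) and between 0 and 0.364 CPM in 4T1 alum (0 to 2 counts), without overlap. Cd3e lay between 0.241 and 1.95 CPM against 0 to 0.341 CPM, and 4 of 5 CT26 tumors were above all 4T1 tumors. Lat, between 0.241 and 3.56 CPM against 0 to 0.575 CPM, overlapped more. None of the 3 passed the filter in this comparison, so no adjusted p is given for them.

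The same comparison could be made in tumors that had received CAT-ABP + alum, with no tumor in common and with all 12 tumors in the same pool set. All 6 genes that passed the filter were again higher in CT26, by 2.50-fold for Trac to 4.65-fold for Cd3g, where 45.4% of 13016 genes were called and 21.7% were called higher in CT26. Cd247 did not pass the filter between the parental 4T1 groups, so it entered here too through its CT26 counts. Cd3g ranged from 13.1 to 36.5 CPM (median 24.9) in CT26 and from 2.67 to 8.33 CPM (median 4.99) in 4T1 (log2 fold change 2.22, SE 0.29, adjusted p = 4.23e-06). Trbc2 ranged from 25.6 to 63.1 CPM (median 43.9) against 7.16 to 23.6 CPM (median 11.1), a log2 fold change of 1.77 (SE 0.25, adjusted p = 1.32e-05).

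Cd3d (1.83, SE 0.27, adjusted p = 2.25e-05) and Lck (1.60, SE 0.24, adjusted p = 2.39e-05) also had no overlap between the groups, as was the case for 11.5% of the genes tested. For Cd3g, Cd3d, Trbc2 and Lck the exact permutation p was 0.00216, the smallest for 6 against 6. Trac (1.32, SE 0.30, adjusted p = 0.00166) overlapped through 4T1 CAT-ABP + alum replicate 3, at 14.1 CPM, and CT26 CAT-ABP + alum replicates 1 and 5, at 13.4 and 10.3 CPM. Cd247 (1.5, SE 0.47, adjusted p = 0.0153) rested on a less clear separation, with an exact permutation p of 0.0779. Its highest 4T1 value, 7.16 CPM, was 6 counts in the shallow 4T1 CAT-ABP + alum replicate 4, and the log2 fold change without that tumor was 1.73.

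**Figure D2:**
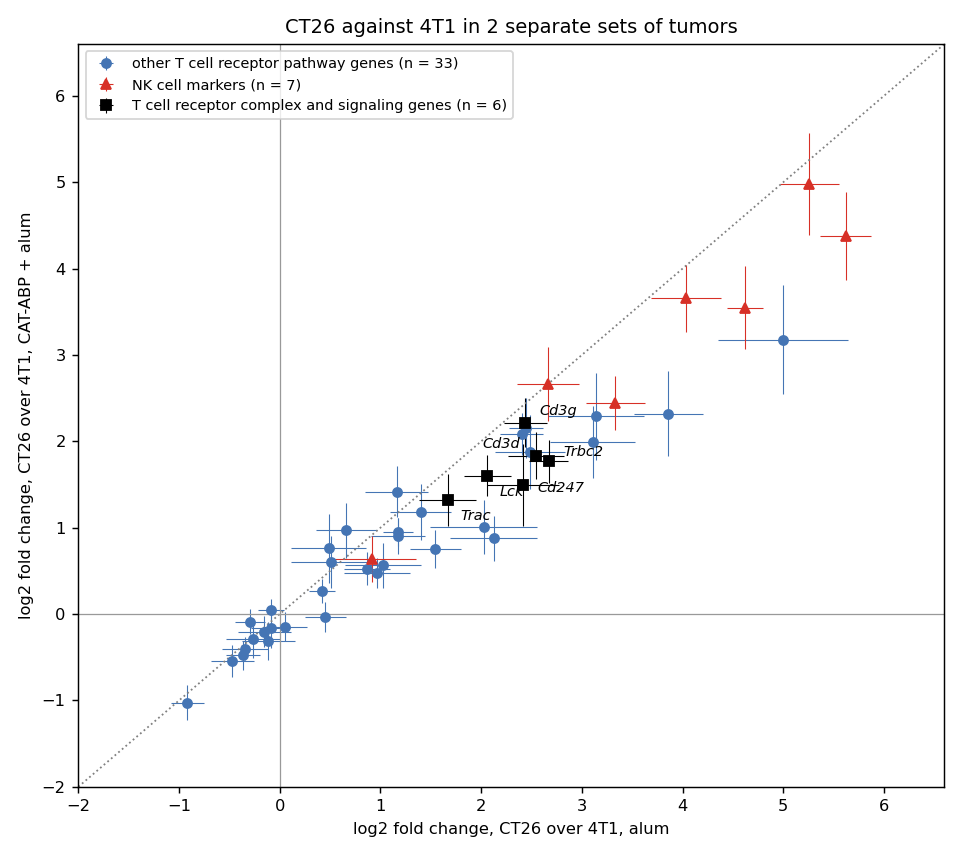
Log2 fold change of CT26 over 4T1 in alum tumors (horizontal axis) and in CAT-ABP + alum tumors (vertical axis), which share no tumor; points are genes, bars are SE, and the dotted line marks equal values. The 6 T cell receptor complex and signaling genes lie between 1.67 and 2.67 on the horizontal and between 1.32 and 2.22 on the vertical axis, with most NK cell markers above them.

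Other genes of the pathway moved in the same direction more often than not. Of 40 listed genes, 35 were tested under alum, and 20 were higher and 1 lower in CT26. Under CAT-ABP + alum, 33 were tested, and 17 were higher and 4 lower. The median log2 fold change of the list was 0.97 and 0.60, against 0.02 and -0.02 over all genes.

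The 5 with the smallest p under alum were all higher in CT26, Trbc1 and 4 others. Ptpn22, a phosphatase that restrains Lck, had a log2 fold change of 2.40 (SE 0.21), Sh2d2a, an adaptor that binds Lck, of 3.86 (SE 0.34), Fyb, an adaptor of T cells and other leukocytes, of 1.17 (SE 0.15), and Sh2d1a, the adaptor SAP of T and NK cells, of 5.00 (SE 0.64). Under CAT-ABP + alum the 5 were Ptpn22 (2.08, SE 0.24), Fyb (0.95, SE 0.16), Trbc1 (2.15, SE 0.35), Sh2d1a (3.17, SE 0.63) and Ubash3a (-1.03, SE 0.20), which encodes a suppressor of receptor signaling and was lower in CT26. Ubash3a was also the 1 gene called lower under alum, with a log2 fold change of -0.92 (SE 0.16). Some further genes are named after their values were seen. The coreceptor genes Cd8a, with log2 fold changes of 3.14 and 2.29, and Cd4, with 2.02 and 1.01, were higher in CT26 in both comparisons. Sos1 (-0.40), Plcg1 (-0.55) and Malt1 (-0.48), which many cell types use, were the other genes lower in CT26 under CAT-ABP + alum.

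Other T cell markers went both ways. Of 16 listed, 11 were tested, with 5 higher and 1 lower in CT26 under alum and 5 higher and 3 lower under CAT-ABP + alum. Their sum was 146 CPM ± 53.3 (SD, n = 5) in CT26 alum against 152 ± 15.6 (n = 5) in 4T1 alum, and 135 ± 30.3 against 157 ± 13.2 (n = 6 each) with CAT-ABP + alum, and the ranges overlapped in both. The genes of this list are named after their values were seen. Cd2, an adhesion molecule of T and NK cells, had log2 fold changes of 2.23 and 1.63, Cd27, a costimulatory receptor, of 2.78 and 2.27, and Gimap4, a lymphocyte GTPase, of 1.80 and 1.61. Gata3, a transcription factor of T cells and of mammary epithelium, was lower in CT26 (-4.25 and -4.21), and its mean of 75.4 CPM was the largest part of the sum in 4T1 alum, against 4.23 CPM in CT26 alum. The others called lower under CAT-ABP + alum were Tcf7 (-1.04), a transcription factor of T cells, and Thy1 (-0.64), a surface protein that fibroblasts also make.

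NK, B and plasma, mast cell and platelet, and myeloid markers were called higher in CT26 more often than lower, and fibroblast markers lower more often than higher. Over all genes tested, 21.2% were called higher in CT26 under alum and 21.7% under CAT-ABP + alum. Of 12 NK cell markers, 8 were tested under alum and 7 were higher in CT26 (median log2 fold change 4.19), and of 7 tested under CAT-ABP + alum 6 were higher (median 3.55). The sum of the NK markers ranged from 710 to 993 CPM in CT26 alum and from 22.6 to 35.8 CPM in 4T1 alum. Ncr1, which encodes the NK receptor NKp46, ranged from 18.3 to 47.2 CPM against 0.523 to 3.41 CPM, while Gzma, Prf1 and Nkg7 of that list are also made by cytotoxic T cells. Among 10 B and plasma cell markers, 3 of 3 tested were higher under alum and 4 of 4 under CAT-ABP + alum, with Cd79a at 0 in all 38 tumors. Of 10 mast cell and platelet markers, 3 of 5 tested were higher under alum and 4 of 8 under CAT-ABP + alum, and their sum ranged from 605 to 1156 CPM in CT26 alum and from 152 to 324 CPM in 4T1 alum. Of 12 myeloid markers, 4 and 7 were higher and none lower. Of 6 fibroblast markers 1 was higher and 4 lower in each comparison, and of 8 lymph node stroma markers 1 of 1 tested was higher under alum and 0 of 2 under CAT-ABP + alum. Of 9 gamma-delta T cell markers 7 are in the table and none passed the filter, and their sum ranged from 4.86 to 6.75 CPM in CT26 alum and from 0.341 to 2.27 CPM in 4T1 alum.

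Of 6 pan-leukocyte genes (1 of them, Ptprc, is also in the pathway list), 5 were higher in CT26 in each comparison, and their sum ranged from 1080 to 1464 CPM in CT26 alum and from 346 to 615 CPM in 4T1 alum. Per 1000 CPM of these genes, the 9 T cell receptor genes came to 94.2 to 156 CPM in CT26 alum and 59.9 to 90.4 CPM in 4T1 alum, which do not overlap. With CAT-ABP + alum the same ratio was 89.6 to 153 in CT26 and 71.6 to 137 in 4T1, which do. A high ratio was not particular to CT26. It was 112 to 218 in 4T1-CAT alum, 88.7 to 159 in 4T1-CAT CAT-ABP + alum and 76.6 to 114 in 4T1-control alum. How often such a ratio lacks overlap for other genes was not computed. The part of leukocyte content and of NK cells in the difference was not tested.

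**Figure D3:**
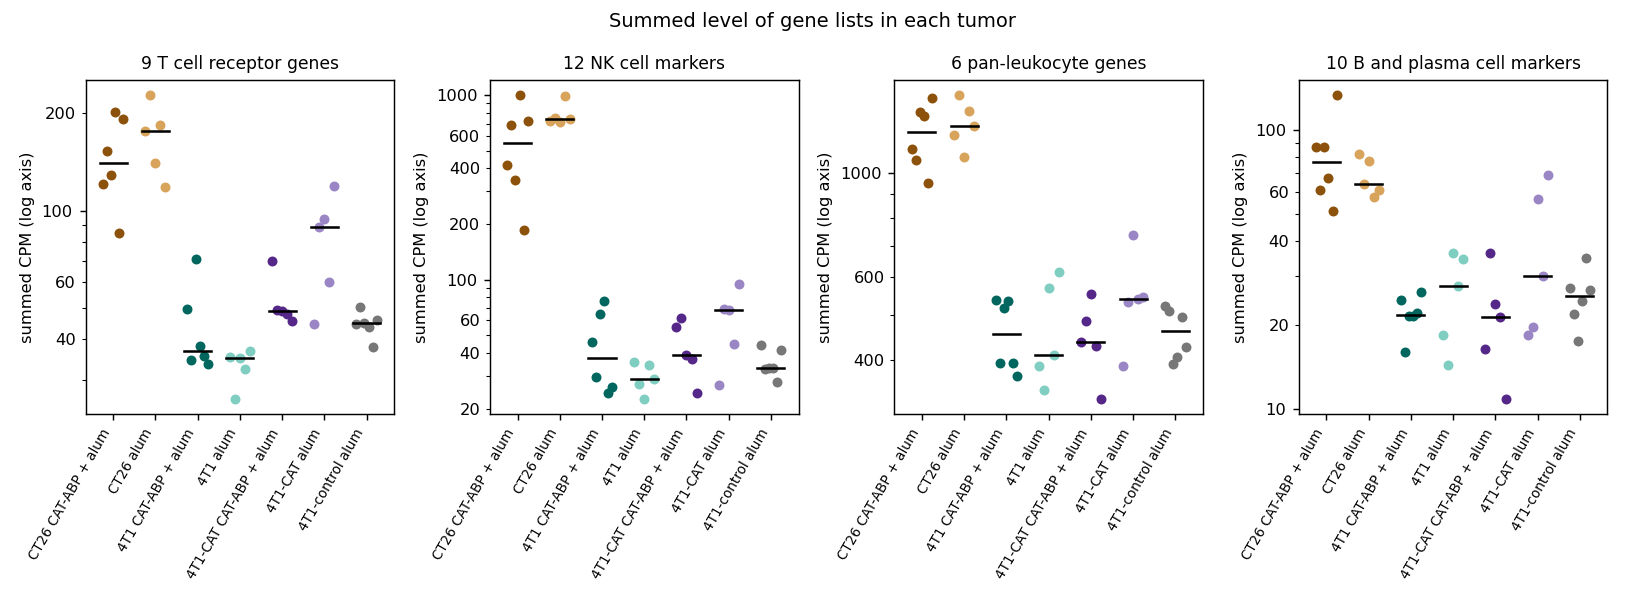
Summed level in CPM (logarithmic vertical axis) of the 9 T cell receptor genes, 12 NK cell markers, 6 pan-leukocyte genes and 10 B and plasma cell markers in each tumor, by group; points are tumors and horizontal bars are medians. All 11 CT26 tumors sit above all 27 4T1-derived tumors for the NK and pan-leukocyte sums, but not for the T cell receptor genes, where the highest 4T1-CAT alum tumor reaches 119 CPM and the lowest CT26 tumor is at 85.2 CPM.

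Injected catalase was not followed by a detected change in these genes in either parental model. In CT26, 7 genes were tested with CAT-ABP + alum against alum, none passed the threshold and none had an unadjusted p under 0.05, and DESeq2 called none. Over all 12830 genes 0% passed, with 309 (2.41%) at an unadjusted p under 0.05 and 1 called by DESeq2. Trbc2, the most counted gene, ranged from 25.6 to 63.1 CPM against 41.0 to 72.0 CPM (log2 fold change -0.33, 95% interval -0.78 to 0.13, adjusted p = 1.00). The groups overlapped for this and each other gene. The intervals of the log2 fold change were -0.44 to 0.50 for Cd3g, -0.69 to 0.42 for Cd3d, -0.62 to 0.36 for Trac, -0.74 to 0.35 for Lck and -1.30 to 0.39 for Cd247. In the pathway list 0 of 36 genes passed and 0 of 10 NK markers.

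In 4T1, 5 genes were tested and none passed, with 0% of 13092 genes called, 368 (2.81%) at an unadjusted p under 0.05 and none called by DESeq2. All 5 genes had log2 fold changes above 0, from 0.17 for Trac to 0.53 for Trbc2, as had 49.5% of all genes. Trbc2 stood at 12.7, 12.1, 23.6, 7.16, 9.28 and 10.1 CPM with CAT-ABP + alum and at 9.56, 6.03, 8.73, 10.04 and 9.41 CPM with alum, the unadjusted p was 0.0437 and the adjusted p 0.999. Replicate 3 was far above the other 5 and the groups overlapped. The log2 fold change of 0.53 became 0.26 without that tumor, with an unadjusted p of 0.222. Cd3d was the next largest, at 2.39 to 9.77 CPM against 2.87 to 5.46 CPM (log2 fold change 0.52, 95% interval -0.10 to 1.14). For Trac the log2 fold change was 1.08 with the pool set as a block, in place of 0.17. All 6 CAT-ABP + alum tumors were in 1 pool set, which held only 2 of the alum tumors. The block therefore leaves only those 2 alum tumors to set against them. Whether the pools or the loss of the other 3 alum tumors moved the value was not tested.

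Whether injected catalase acted differently in CT26 and 4T1 was tested as an interaction, and 0 of 7 genes passed, with 0% of 14160 genes called. The estimates were below 0 for all 7 genes, with an unadjusted p under 0.05 for Trbc2 (-0.88, SE 0.34, p = 0.0148, adjusted p = 1.00). Over all genes 503 had an unadjusted p under 0.05, and DESeq2 called none. The share of all genes below 0 was not computed, and their median estimate was -0.02. Of the 7, Lat had few counts in every group and Cd247 in both parental 4T1 groups.

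Catalase made inside the tumor cells was compared in 4T1-CAT against 4T1-control tumors, both with alum and on the diet. Trbc2 stood at 14.0, 28.0, 33.4, 17.5 and 39.3 CPM in the 5 4T1-CAT tumors and at 13.6, 10.9, 11.5, 8.95, 9.32 and 10.01 CPM in the 6 4T1-control tumors. Every 4T1-CAT tumor was above every 4T1-control tumor, though replicate 1 by a small margin. Of all genes, 0.399% were higher without overlap in this direction. The log2 fold change was 1.30 (SE 0.26, 95% interval 0.76 to 1.84) and the exact permutation p was 0.00216, the smallest that 5 against 6 allow. Adjusted over 12534 genes the p was 0.280 and Trbc2 was not called, nor were the other 4 genes tested, and 0% of genes passed, with 627 (5%) at an unadjusted p under 0.05, 3 of the 5 among them.

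That call depends on the method. DESeq2 called Trbc2 (adjusted p = 0.0139) as 1 of 6 genes, and edgeR without the low-count filter called it with an adjusted p of 4.3e-05, while over all other settings the adjusted p ranged from 0.0798, without 4T1-CAT alum replicate 1, to 1.00. The log2 fold change was 0.86 in the first technical libraries alone, 1.41 in the second alone, and 1.14 without the pair of libraries that share an index tag. Trbc2 also stands on a gene list that the study drew from these same tumors, so its value here is not independent of that choice. Trbc1 had a log2 fold change of 0.79 (SE 0.26, adjusted p = 0.728).

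The other chains spread more. Cd3g stood at 5.35, 16.1, 15.6, 12.7 and 26.7 CPM against 10.97, 17.5, 9.04, 5.97, 5.43 and 6.39 CPM (log2 fold change 0.91, SE 0.35, adjusted p = 0.842). Here the groups overlapped, and the highest control value was 8 counts in the shallow replicate 2. Cd3d stood at 6.52, 15.2, 14.4, 8.67 and 21.6 CPM against 2.63, 2.18, 5.92, 7.46, 9.06 and 7.03 CPM (log2 fold change 1.02, SE 0.33, adjusted p = 0.716). Lck, at 7.90 to 14.1 CPM against 2.18 to 9.80 CPM, had a log2 fold change of 0.54 (SE 0.27, adjusted p = 0.987). The control values of 2.18 CPM for Cd3d and for Lck were 1 count each in replicate 2. Trac, for the alpha chain that pairs with the beta chain, stood at 6.68, 13.4, 13.2, 10.7 and 12.6 CPM against 8.77, 17.5, 6.86, 10.9, 6.47 and 11.1 CPM. Its log2 fold change was 0.26 (95% interval -0.29 to 0.80). The groups overlapped, and the value of 17.5 CPM was again 8 counts in replicate 2.

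In 4T1-CAT alum, replicate 5 was the highest tumor for Cd3g, Cd3d and Trbc2, and replicate 1 the lowest for each. Replicate 5 was also highest of its group for the sums of the B and plasma cell markers (69.1 CPM), lymph node stroma markers (24.7 CPM), mast cell and platelet markers (665 CPM), fibroblast markers (5818 CPM) and NK markers (94.7 CPM). In 4T1-control alum the highest of these sums were 34.7, 2.77, 533, 2991 and 44.3 CPM. Not every list went this way. The highest pan-leukocyte sum of 4T1-CAT alum, 737 CPM, was in replicate 3. Replicate 5 was also the shallowest tumor of its group, at 2236450 counts. Without replicate 5 the log2 fold change of Trbc2 was 1.12. The part of these cells in the difference was not tested. Of the pathway list 0 of 26 genes passed, with 18 above 0 and a median log2 fold change of 0.22 against -0.01 for all genes, and of 6 NK markers 0 passed.

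With CAT-ABP + alum on top of intracellular catalase, the 4T1-CAT tumors had lower values for several of the same genes than with alum, and none of the 6 tested passed. Trbc2 stood at 21.9, 12.8, 11.8, 14.0 and 12.9 CPM against 14.0, 28.0, 33.4, 17.5 and 39.3 CPM (log2 fold change -0.82, SE 0.27, adjusted p = 0.212). Cd3g had a log2 fold change of -0.93 (SE 0.32, adjusted p = 0.221) and Cd3d of -0.76 (SE 0.30, adjusted p = 0.254). The groups overlapped in all 3, and the exact permutation p was 0.0556 for Trbc2 and 0.0794 for Cd3g and Cd3d. Trac (-0.32), Lck (-0.19) and Cd247 (0.22) had intervals that include 0. In this comparison 0% of 13093 genes were called, with 1983 at an unadjusted p under 0.05, and DESeq2 called 266 genes, none of them among the 9.

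The difference between that effect and the effect of CAT-ABP + alum in parental 4T1 was tested as an interaction, and none of 6 genes passed (0% of 13851 genes were called). The estimates were -1.35 for Trbc2 (SE 0.38, unadjusted p = 0.00162), -1.30 for Cd3d (SE 0.43, p = 0.0060) and -1.15 for Cd3g (SE 0.46, p = 0.0196), each with an adjusted p of 0.529 by edgeR. Over all genes 1206 had an unadjusted p under 0.05, and DESeq2 called none. The alum tumors of each line enter both this estimate and the comparisons above.

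**Figure D4:**
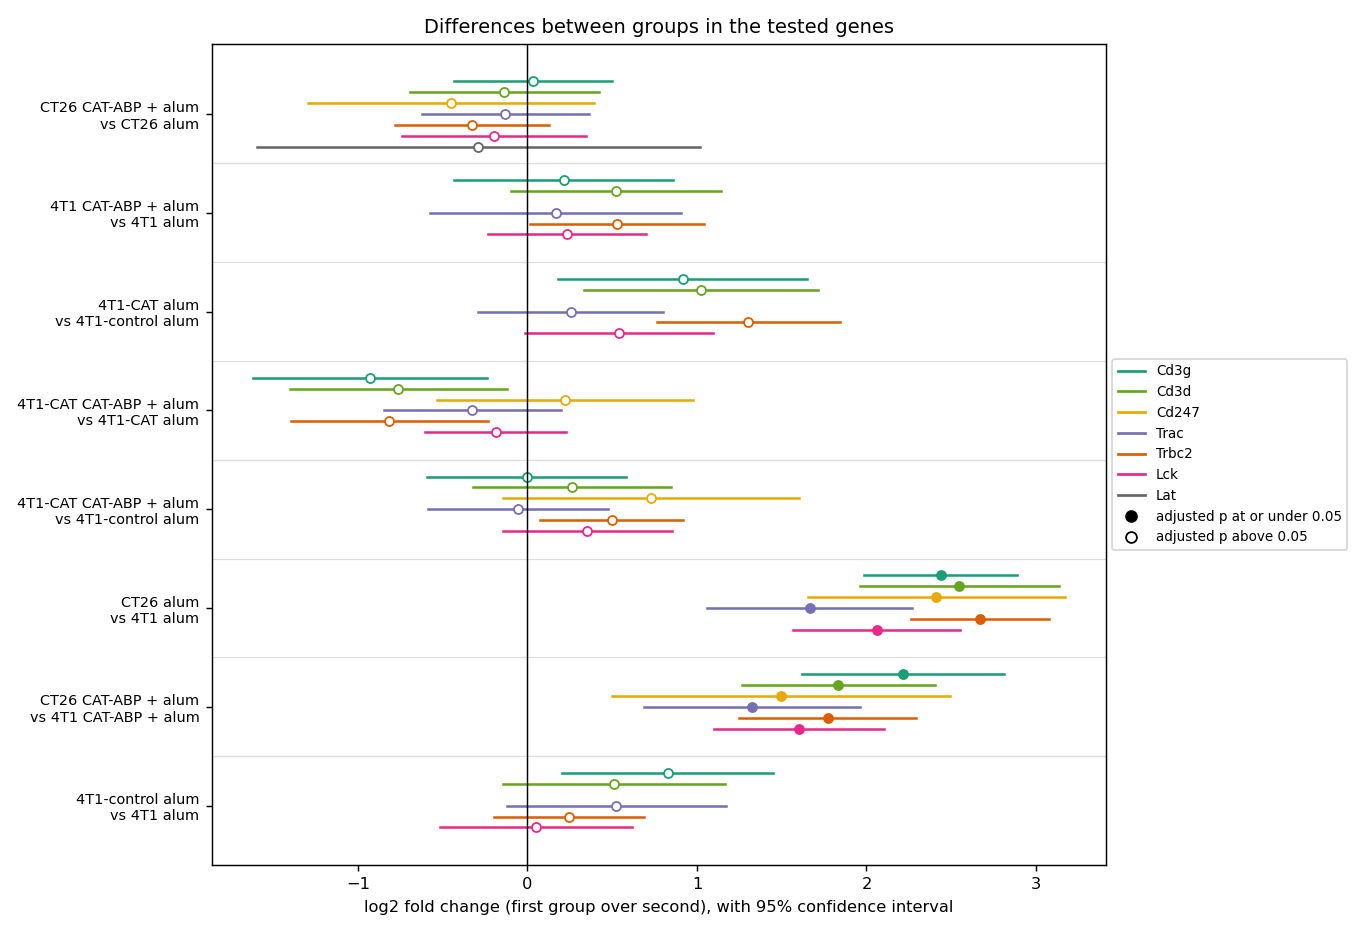
Log2 fold change (horizontal axis) of each tested gene in the 8 comparisons of 2 groups (vertical axis), with 95% confidence intervals as lines; filled points have an adjusted p at or under 0.05 and open points do not. Filled points appear in the 2 comparisons of CT26 with 4T1, where all 6 tested genes lie above 1.

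Against 4T1-control alum tumors, 4T1-CAT tumors with CAT-ABP + alum, which carry both catalases, had no gene of 6 called, where 0.0156% of 12781 genes were. DESeq2 called 510 genes here and none of the 9, and edgeR 2141 genes at an unadjusted p under 0.05. Of the 6, Trbc2 had the smallest p, at 11.8 to 21.9 CPM against 8.95 to 13.6 CPM (log2 fold change 0.50, 95% interval 0.07 to 0.92, adjusted p = 0.214). By technical library its log2 fold change was 0.02 in the first and 0.94 in the second. Cd3g (-0.0044, 95% interval -0.59 to 0.58) and Trac (-0.06, 95% interval -0.59 to 0.48) stood near 0.

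The engineered control line was set against parental 4T1, each with alum, to see what vector and diet go with. None of 5 genes was called by edgeR or DESeq2, where 0.0161% of 12431 genes were by edgeR, 1297 had an unadjusted p under 0.05 and DESeq2 called 16. Cd3g was the largest, and all 6 4T1-control tumors, at 5.43 to 17.5 CPM, were above all 5 parental tumors, at 3.71 to 5.23 CPM, as was the case for 0.314% of genes. Its log2 fold change was 0.83 (SE 0.30, adjusted p = 0.312). The closest Cd3g values of the groups, 5.43 and 5.23 CPM, were 21 and 20 counts. The value of 17.5 CPM was 8 counts in the shallow 4T1-control alum replicate 2. All 6 4T1-control tumors were in 1 pool set, which held 3 of the 5 parental tumors. Trbc2, at 8.95 to 13.6 CPM against 6.03 to 10.04 CPM, had a log2 fold change of 0.24 (95% interval -0.20 to 0.69), and 0.86 in the first technical libraries alone.

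The makeup of the set can be read from each gene's part in the summed level. Trbc2 held between 24.1% and 33.6% of the sum as group means, Lck between 14.0% and 21.7%, Cd3g between 12.1% and 20.2%, Cd3d between 13.2% and 16.2%, Trac between 12.3% and 22.6% and Cd247 between 3.00% and 6.18%. The largest share of Trac was in 4T1-control alum and the smallest in CT26 alum. Group means weight each tumor alike, so the shallow tumors raise some of them. In 4T1-control alum replicate 2, Cd3g and Trac each held 34.8%, from 8 of 23 counts. In 4T1 CAT-ABP + alum replicate 4, Cd247 held 18.8%, from 6 of 32 counts. These shares are described without a test, and shares of genes in 1 sum are not independent.

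Within groups, after each group's mean was subtracted, the 6 genes with more counts were correlated over the 38 tumors with Pearson's r between -0.11 and 0.71 (median 0.37, 15 pairs), and the 21 pairs with Cd3e, Zap70 or Lat between -0.07 and 0.51 (median 0.18). Depth and total leukocyte content are shared by the genes of a tumor. Of 14639 genes outside the set, the 10 whose centered log2 CPM was most like that of the summed set were Gm15056 (r = 0.83), Cd53, a tetraspanin of leukocytes (0.82), Sting1, the adaptor of cyclic dinucleotide sensing (0.82), Serping1, the C1 inhibitor (0.81), the chemokine Ccl8 (0.81), Rarres2, which encodes chemerin (0.79), Lilr4b, an inhibitory leukocyte receptor (0.79), Fcgr2b, an inhibitory Fc receptor (0.78), Serpina3g (0.78) and the chemokine Ccl5 (0.77). Over the 36 tumors with at least 1000000 counts these r lay between 0.77 and 0.84.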

How the data were processed

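RNA from 38 whole tumors was made into 76 libraries, 2 per tumor, by a 3′ method (a modified SCRB-seq), and per the study's methods was sequenced on a NextSeq and processed with a Smart-seq2 pipeline. The values the authors deposited are expected counts per gene, made from the reads with that pipeline and not normalized, and 39.7% of those above 0 were not whole numbers. Aligner, genome build, strand setting and handling of molecular identifiers are not given in the sources used here. Of 55536 versioned gene identifiers, 99.8% were identical in GENCODE M21 (GRCm38), which supplied the positions, and promoter windows came from RefSeq. The study left out some shallow technical libraries without naming them, and all were kept here.

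Counts were summed over the technical libraries of a tumor and rounded. Genes were filtered with filterByExpr, scaled by TMM and tested by edgeR's quasi-likelihood test (edgeR 4.0.16, limma 3.58.1, R 4.3.3) on the tumors of the groups compared, with Benjamini-Hochberg adjustment over all genes tested and a threshold of 0.05. CPM used TMM scaling over all tumors, and log2 CPM a prior count of 2. For single genes an exact permutation test (two-sided) of log2 CPM was added. Tumors form the replicates, with n of 5 or 6. Alternatives were DESeq2 1.42.0, RLE size factors, no or a stricter filter (a mean of 20 counts), either technical library alone, low-depth libraries left out, 1 model over 7 groups, the replicate number or pool set as a block, and each tumor left out. Leaving out the tumors under 1000000 counts, the libraries sharing an index tag, and each tumor in the interactions and the test over 7 groups was added after seeing the data. The fits were tested on simulated data.

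The 9 genes and the marker and pathway lists were chosen with earlier results of these data known. Beside the 9 genes, the text names up to 5 called pathway genes per comparison by smallest p, the 10 genes most like the summed set, and markers where a level is needed. A gene had few counts where its median in a group was under 10.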

Additional observations from a re-analysis of the deposited data

Results flagged for a closer look

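In 5 of 70 sets of tumors (each of the 9 genes and their sum in each of 7 groups) a single tumor stood far from the others of its group. The rule flags about 1 in 20 sets of independent, normally distributed values. CPM values need not be normal, and the 70 sets share genes and tumors, so that rate need not hold here. Each of the 5 was on the high side. Of the receptor chains, Trbc2 was 23.6 CPM in 4T1 CAT-ABP + alum replicate 3, from 119 counts, against 12.7 CPM in the next tumor. In 4T1-CAT CAT-ABP + alum replicate 1, Trbc2 was 21.9 CPM, from 130 counts, against 14.0 CPM in the next, and the sum of the 9 genes in that tumor was 69.6 CPM against 49.2 CPM. The other 2 values rest on few counts. Cd3e was 1.96 CPM in 4T1-CAT alum replicate 5, from 5 counts, against 0.389 CPM, and Cd247 was 7.16 CPM in the shallow 4T1 CAT-ABP + alum replicate 4, from 6 counts, against 2.58 CPM. No explanation of these values was tested.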

How the results depend on the processing

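The number of the 9 genes called was 5 to 8 for CT26 alum against 4T1 alum, 5 to 7 for CT26 against 4T1 with CAT-ABP + alum and 5 to 8 over the 7 groups under all other settings, and 6 to 6, 6 to 6 and 6 to 7 with each tumor left out. Each count of 5 came where 5 of the genes passed the filter. Every member called in the 2 comparisons of CT26 with 4T1 stayed higher in CT26 under each alternative in which it was tested. For 4T1-CAT alum against 4T1-control alum the count of 0 became 1, Trbc2, under DESeq2 and without the filter. The remaining counts stayed at 0.

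Over all genes, the number called ranged over the settings from 0 to 99 for 4T1-CAT alum against 4T1-control alum, 0 to 266 for 4T1-CAT CAT-ABP + alum against 4T1-CAT alum, 0 to 640 for 4T1-CAT CAT-ABP + alum against 4T1-control alum, 0 to 58 for 4T1-control alum against 4T1 alum, 0 to 2 for CT26 CAT-ABP + alum against CT26 alum, 2862 to 6332 for CT26 alum against 4T1 alum, 3569 to 7025 with CAT-ABP + alum, and 4832 to 8866 over the 7 groups.

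Values near 0 changed sign, none of them called, and the cause was not tested. With the second technical libraries alone, Cd3g was -0.0204 in CT26 CAT-ABP + alum against alum, Trac -0.16 in 4T1 CAT-ABP + alum against alum, 0.11 in 4T1-CAT CAT-ABP + alum against 4T1-control alum and 0.0939 in the CT26 interaction. With the first alone, Cd247 was 0.14 in the 4T1-CAT interaction. For 4T1-CAT CAT-ABP + alum against 4T1-control alum, Cd3g was 0.0310 without the filter, 0.0976 without low-depth libraries and 0.10 without tumors under 1000000 counts, and Trac 0.0021 and 0.0232 in the last pair of settings, where Cd247 in the 4T1-CAT interaction was 0.0268 without those tumors. With the pool set as a block, Lck was -0.0181 in 4T1 CAT-ABP + alum against alum. Over the fits without 1 tumor each, the ranges that crossed 0 were, for CT26 CAT-ABP + alum against alum, -0.11 to 0.17 for Cd3g, -0.31 to 0.0302 for Cd3d, -0.24 to 0.00014 for Trac and -0.58 to 0.10 for Lat. They were -0.13 to 0.43 for Trac in 4T1 CAT-ABP + alum against alum, -0.15 to 0.10 for Cd3g and -0.19 to 0.0434 for Trac in 4T1-CAT CAT-ABP + alum against 4T1-control alum, -0.0906 to 0.19 for Lck in 4T1-control alum against 4T1 alum, and -0.46 to 0.0268 for Cd247 in the 4T1-CAT interaction.

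Groups share replicate numbers, but same-numbered tumors did not deviate together: in no comparison was every pair's correlation over 0.1, and at most 2 tumors correlated best with their own number. With the replicate number as a block, 6 and 6 of the genes were called in the comparisons of CT26 with 4T1 and 0 in each other pairwise comparison, Cd3g was -0.0246 in CT26 CAT-ABP + alum against alum and Lck was -0.0920 in 4T1-control alum against 4T1 alum. Depth limits Cd3e, Zap70 and Lat most, whose mean log2 CPM moved by more than 1 SD with a prior count of 0.5 in 13 sets of gene and group.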
